A study of Homo sapiens with 2 samples.

Results

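The BCL2 family of cell death regulators was followed through 10 genes, chosen by symbol from the 50868 genes of the table and all found in it. These were the prosurvival genes BCL2, BCL2L1 and MCL1, the effectors BAX and BAK1, and the BH3-only genes BID, BAD, BCL2L11, BBC3 and PMAIP1. The RNA came from KASUMI-1, an established line of human myeloid leukaemia cells with the fusion gene RUNX1-RUNX1T1, infected with a USP6 lentivirus or with a pccl lentivirus, whose label does not say what it carries and which served here as the control. Both groups had thus been infected, and the time after infection, the dose of virus and any selection of infected cells are not in the labels. Each group was 1 library of this line, so differences lack a replicate check and none was tested. USP6 is a deubiquitinase that the series title links to RUNX1 fusion proteins, and the values below show how messages of the BCL2 family differed between the USP6 and the pccl library.

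The family sets whether the outer membrane of mitochondria is opened, the step of apoptosis that releases cytochrome c and leads to caspase activation. The effector proteins BAX and BAK1 form the openings, prosurvival proteins hold effectors and BH3-only proteins in check, and BH3-only proteins carry stress signals to both. Myeloid leukaemia cells lean on MCL1, BCL2 or BCL-XL to differing degrees, which is why drugs that mimic the BH3 motif are used against them. Much of the control of these proteins lies in their binding, cleavage, phosphorylation and degradation, which message levels do not measure.

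The members share the BH3 motif, a short helix that lies in the binding groove of a prosurvival partner, or, in the prosurvival proteins, forms part of that groove. Its codons are shown for 6 members, the effectors, BAD, the prosurvival genes MCL1 and BCL2, and PMAIP1 as the highest member in the USP6 library. Each stretch of 36 bases is the coding strand of a GENCODE release 29 transcript (GRCh38). The capitals mark the codons of the leucine and the aspartate that begin and end the pattern searched for. All 10 members had a match, and every match holds both residues by that rule.
BAX: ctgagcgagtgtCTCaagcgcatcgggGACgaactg
BAK1: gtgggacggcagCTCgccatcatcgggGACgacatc
BAD: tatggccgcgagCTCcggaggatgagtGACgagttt
PMAIP1: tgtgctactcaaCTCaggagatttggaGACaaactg
MCL1: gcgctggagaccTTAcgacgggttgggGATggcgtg
BCL2: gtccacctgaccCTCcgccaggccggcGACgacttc
Not every annotated message codes for the motif. It was found in 5 of 9 coding transcripts of BAX, 4 of 6 of BAD and 4 of 11 of BID, against 3 of 3 of BCL2, MCL1 and BAK1. Counts per gene do not separate these transcripts.

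The libraries were of similar depth, with 12518795 counts in the USP6 library and 12306442 in the pccl library, of which genes of the mitochondrial genome took 45.6% in the USP6 library and 49.9% in the pccl library. USP6 itself had 70 counts in the USP6 library and 8 in the pccl library. Both levels were under 1 FPKM, a unit that divides the count by the length of the gene and the size of the library. It is not known if reads from the virus were assigned to the USP6 gene. Of 7 myeloid leukaemia markers, 6 were at 1 FPKM or more in the higher library, and they differed in both directions: MPO was 4.44-fold and ANPEP 5.29-fold higher in the USP6 library, and KIT was 2.48-fold and CD34 3.01-fold lower. The list summed to 177 FPKM in the USP6 library and 146 in the pccl library. The erythroid list summed to 0.0782 FPKM in the USP6 library and 0.0796 in the pccl library, with ALAS2 at 0 counts in both. The megakaryocyte list summed to 1.19 FPKM in the USP6 library and 0.257 in the pccl library, with PF4 and PPBP at 0 in both. The stromal and epithelial list summed to 8.97 FPKM in the USP6 library and 17.4 in the pccl library, nearly all of it EPCAM, with COL1A2, DCN and KRT18 at 0. The B cell list summed to 13.9 FPKM in the USP6 library and 4.06 in the pccl library, and the T and natural killer cell list to 31.5 FPKM in the USP6 library and 29.8 in the pccl library. Most of the last sum was CD3D, while CD3E was 4.88-fold higher in the USP6 library and CD2 had 81 counts in the USP6 library and 4 in the pccl library. Their part in the results was not tested. In bulk RNA, fewer cells of a type and less RNA per cell cannot be told apart.

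BAX was the member that stood furthest apart. Differences were measured as log2((USP6 + 1)/(pccl + 1)) of FPKM, where the added 1 is a pseudocount that shrinks the ratio of low genes, and genes were counted at a limit of 1 in either direction. Of the 8 members that reached 1 FPKM in the higher library, called expressed, 1 was past the limit, lower in the USP6 library, and 0 were higher. Among all 10153 expressed genes, 25.1% were past the limit, 11.4% lower and 13.7% higher, so a count of 1 in 8 does not set the family apart from the table. At a limit of 0.58, or 1.5-fold, BAX, BCL2 and MCL1 were lower and BAD was higher, against 24.5% of all expressed genes that were lower and 27.9% that were higher. The median over the 8 members was -0.23, and that over all expressed genes 0.06. BCL2L11 and BBC3 stayed under 1 FPKM in both libraries and are not among the 8. Scaling both libraries to the same FPKM sum raised the median of all genes by 0.14, and 65.2% of the genes past the limit were then higher, against 54.7% as deposited. With that scaling 1 member was lower and 1, BAD, higher.

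Coordinates of the members are those of the table, which match GRCh38. Among the effectors, BAX (ENSG00000087088, chromosome 19 from 48954815 to 48961798, plus strand) had 86 counts and 1.17 FPKM in the USP6 library, against 306 counts and 4.24 FPKM in the pccl library. The exact counting intervals of these levels, 0.937 to 1.45 FPKM in the USP6 library and 3.78 to 4.74 in the pccl library, lay far apart. BAX was 3.62-fold lower in the USP6 library, with a 95% counting interval of 2.84 to 4.65 (Clopper-Pearson, from the share of the gene's counts that fell in each library). All such intervals cover counting error only, and neither differences between cultures nor copies of a molecule made by PCR. In levels, BAX stood at percentile 18.6 of the expressed genes in the USP6 library and at percentile 63.3 in the pccl library. Its log2 ratio of -1.27 lay at percentile 6.74 of all expressed genes.

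BAK1 (ENSG00000030110, chromosome 6 from 33572547 to 33580293, minus strand), which can stand in for BAX in opening the membrane, had 150 counts and 3.10 FPKM in the USP6 library, against 104 counts and 2.19 FPKM in the pccl library. That is 1.42-fold higher (1.10 to 1.84), the opposite direction to BAX. After centring on the GC trend described below, its log2 ratio of 0.36 became -0.10. Its processed copies BAK1P1 and BAK1P2 had 3 and 0 counts in the USP6 library and 0 each in the pccl library.

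The order of both effectors differed between the libraries. A ratio between genes within a library does not move with the scaling of that library. There were 0.378 FPKM of BAX to 1 of BAK1 in the USP6 library and 1.94 to 1 in the pccl library, so the ratio of BAX to BAK1 was 5.12-fold lower in the USP6 library (exact counting interval 3.58 to 7.36). BAX and BAK1 have transcripts of nearly the same GC content, 58.9% and 58.8%. BAX was also lower relative to BCL2, a prosurvival gene that itself was lower, with ratios of 0.600 in the USP6 library and 1.17 in the pccl library (1.94-fold lower, 1.48 to 2.57). The genes of these ratios were chosen after their values had been seen, and the ratios between other members given below come from the same hand-picked set.

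The promoter of BAX is shown because BAX was past the limit and because its sequence stands out in this family. The 250 bases before the RefSeq start (chr19:48954625-48954874, plus strand, GRCh38.p14) are printed with the E-box CACGTG, which reads the same on both strands and is bound by MYC and related factors, in capitals.
BAX promoter: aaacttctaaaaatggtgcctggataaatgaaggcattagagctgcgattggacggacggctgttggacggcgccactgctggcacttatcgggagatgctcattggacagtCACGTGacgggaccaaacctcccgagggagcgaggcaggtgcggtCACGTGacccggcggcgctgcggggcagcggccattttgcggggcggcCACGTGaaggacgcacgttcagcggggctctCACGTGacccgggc
It holds 4 E-boxes. Of 35116 RefSeq promoter windows of this length, several of them from different starts of the same gene, 6.34% held at least 1 and 5 windows (0.0142%) held 4 or more. BBC3 had 1 E-box, and BCL2, BCL2L1, BAK1, BID, BAD, BCL2L11 and PMAIP1 had 0 in the window nearest to the start that the table lists. RefSeq starts and those of the table differ, and only the BAD window lies wholly before its locus. The BCL2 and BCL2L11 windows lie wholly inside their loci, and the other windows, that of BAX included, reach into them. The motif counts are thus not all of like positions. A match in letters is a description and does not show that a factor is bound. MYC had 1.43 FPKM in the USP6 library and 0.199 in the pccl library, 7.15-fold higher (4.56 to 11.7). These values rest on 160 counts in the USP6 library and 22 in the pccl library. After GC centring, described below, its log2 ratio was 0.82, short of the limit. Whether MYC bears on the BAX difference was not tested.

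**Figure D1:**
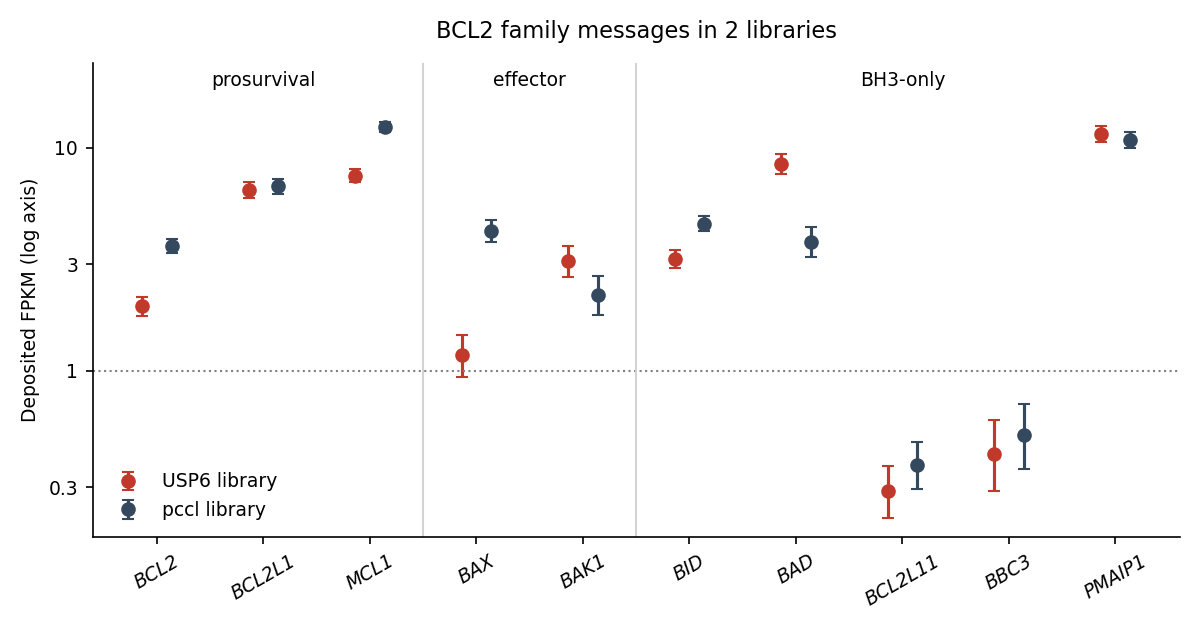
Deposited FPKM of the 10 members on a log axis in the USP6 library (left of each pair of points, red) and the pccl library (right, dark), in order of role, with exact Poisson 95% intervals of the counts as bars and 1 FPKM as a dotted line. BAX had 1.17 FPKM in the USP6 library and 4.24 in the pccl library, BAD 8.45 in the USP6 library and 3.79 in the pccl library, while PMAIP1 and BCL2L1 had overlapping intervals.

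Of the prosurvival genes, MCL1 and BCL2 were lower in the USP6 library and BCL2L1 was not. MCL1, a short-lived protein on which many myeloid cells depend, is encoded on chromosome 1 from 150574551 to 150579738 (ENSG00000143384, minus strand). It had 894 counts and 7.50 FPKM in the USP6 library, against 1458 counts and 12.4 FPKM in the pccl library, 1.66-fold lower (1.53 to 1.81). BCL2 (ENSG00000171791, chromosome 18 from 63123346 to 63320128, minus strand), the target of venetoclax, had 397 counts and 1.95 FPKM in the USP6 library, against 727 counts and 3.63 FPKM in the pccl library, 1.86-fold lower (1.65 to 2.11). Their log2 ratios of -0.66 and -0.65 were close to each other, and both stayed below 0 under all settings of scale and GC trend. These are part of 11 settings that were run for single members. The others, of pseudocount, gene length and each gene identifier on its own, cannot change the sign of a member.

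BCL2L1 (ENSG00000171552, chromosome 20 from 31664452 to 31723989, minus strand) encodes the prosurvival protein BCL-XL and, by another splice site, a shorter form that promotes death. It had 575 counts and 6.51 FPKM in the USP6 library, against 584 counts and 6.72 FPKM in the pccl library. The ratio of 0.968 had a counting interval of 0.861 to 1.09, so a difference was not detectable at this depth. Within the library, BCL2 was 1.80-fold lower relative to BCL2L1 (1.52 to 2.14). MCL1 was 1.61-fold lower relative to BCL2L1 (1.39 to 1.86), with FPKM ratios of 1.15 in the USP6 library and 1.85 in the pccl library. MCL1 and BCL2 have less GC (45.1% and 45.6%) than BCL2L1 (56.9%), and genes of low GC content were mostly lower in the USP6 library. Centred on that trend, the log2 ratios were -0.46 for MCL1, -0.47 for BCL2 and -0.39 for BCL2L1, so that the gap between BCL2L1 and the other prosurvival genes shrank.

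BAD was the member with the largest difference in the other direction. BAD binds BCL2 and BCL-XL and is kept inactive by phosphorylation and 14-3-3 proteins. BAD (ENSG00000002330, chromosome 11 from 64269830 to 64284704, minus strand) had 372 counts and 8.45 FPKM in the USP6 library, against 164 counts and 3.79 FPKM in the pccl library. It was 2.23-fold higher (1.85 to 2.70), and with the pseudocount its log2 ratio of 0.98 lay just short of the limit of 1, at percentile 85.7 of all expressed genes. Relative to BCL2L1, whose protein it binds, BAD had a ratio of 1.30 in the USP6 library and 0.564 in the pccl library, 2.30-fold higher (1.85 to 2.88). Relative to BCL2 the ratios were 4.33 in the USP6 library and 1.04 in the pccl library, 4.15-fold higher (3.31 to 5.21). These ratios were not centred on the GC trend, and BAD has 66.3% GC, against 56.9% for BCL2L1 and 45.6% for BCL2. On that trend, the log2 ratio was 0.81 at the GC content of BAD, 0.35 at that of BCL2L1 and -0.18 at that of BCL2.

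Both a neighbour and the GC content of BAD bear on this value. GPR137 runs on the opposite strand over 14643 bases of the BAD locus, and since the strandedness of the libraries was not given, reads of these genes cannot be told apart where their exons overlap. GPR137 had 170 counts in the USP6 library and 122 in the pccl library (1.37-fold higher, 1.08 to 1.74), and the sum of both genes was 1.86-fold higher (1.61 to 2.16). Genes that overlap other members had almost no counts: GGNBP1 over BAK1, BCL2L1-AS1 and ABALON over BCL2L1 and AC022726.1 over BCL2 had 0 in both libraries, AC022726.2 over BCL2 had 3 in the USP6 library and 2 in the pccl library, and ADAMTSL4-AS1 beside MCL1 had 0 in the USP6 library and 2 in the pccl library. The transcript of BAD has 66.3% GC, and the log2 ratio of genes of that content was 0.81 on the GC trend. Its log2 ratio was 0.17 after centring. The 250 bases before its RefSeq start (chr11:64284705-64284954, minus strand, GRCh38.p14) are shown for comparison with BAX, with the GC box GGGCGG, searched on both strands as GGGCGG and CCGCCC, in capitals.
BAD promoter: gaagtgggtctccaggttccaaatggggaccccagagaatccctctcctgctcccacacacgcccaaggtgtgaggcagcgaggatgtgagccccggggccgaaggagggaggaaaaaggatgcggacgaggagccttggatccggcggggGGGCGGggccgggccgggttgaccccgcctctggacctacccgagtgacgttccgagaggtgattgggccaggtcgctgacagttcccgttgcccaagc
It holds 1 GC box and 0 E-boxes, and 42.6% of all promoter windows hold a GC box. The BAX window also holds 1 GC box, and whether this motif bears on either gene was not tested. The windows of BAK1, BCL2L11 and PMAIP1 hold 2, 3 and 4. The windows of BAX and BAD have 62.8% and 66.4% GC.

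The other BH3-only genes were closer between the libraries. BID (ENSG00000015475, chromosome 22 from 17734138 to 17774770, minus strand), which caspase-8 cleaves into an active form, had 451 counts and 3.18 FPKM in the USP6 library, against 637 counts and 4.57 FPKM in the pccl library, 1.44-fold lower (1.27 to 1.62). PMAIP1 (ENSG00000141682, chromosome 18 from 59899948 to 59904306, plus strand) encodes NOXA, which binds MCL1. It had 583 counts and 11.6 FPKM in the USP6 library, against 536 counts and 10.9 FPKM in the pccl library, 1.07 times as much (0.949 to 1.20). At this depth a difference of PMAIP1 was not detectable. There were 1.55 FPKM of PMAIP1 to 1 of MCL1 in the USP6 library and 0.872 to 1 in the pccl library, 1.77-fold higher (1.53 to 2.05). With the GC trend removed, the log2 ratio of PMAIP1, whose transcript has 37.2% GC, was 0.43, against 0.09 as deposited.

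BBC3 and BCL2L11, which encode the potent activators PUMA and BIM, were the lowest members. BBC3 (ENSG00000105327, chromosome 19 from 47220822 to 47232766, minus strand) had 31 counts and 0.425 FPKM in the USP6 library, against 37 counts and 0.516 FPKM in the pccl library. BCL2L11 (ENSG00000153094, chromosome 2 from 111119378 to 111168447, plus strand) had 55 counts and 0.289 FPKM in the USP6 library, against 71 counts and 0.379 FPKM in the pccl library. Their ratios of 0.824 (0.494 to 1.36) and 0.762 (0.526 to 1.10) had counting intervals that include 1, wide enough to leave room for a 2-fold difference in BBC3. In all, the counting interval excluded a ratio of 1 for 6 of the 10 members, of which 4 were lower and 2 higher. The same was not counted over all expressed genes, so this number does not set the family apart from the table.

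**Figure D2:**
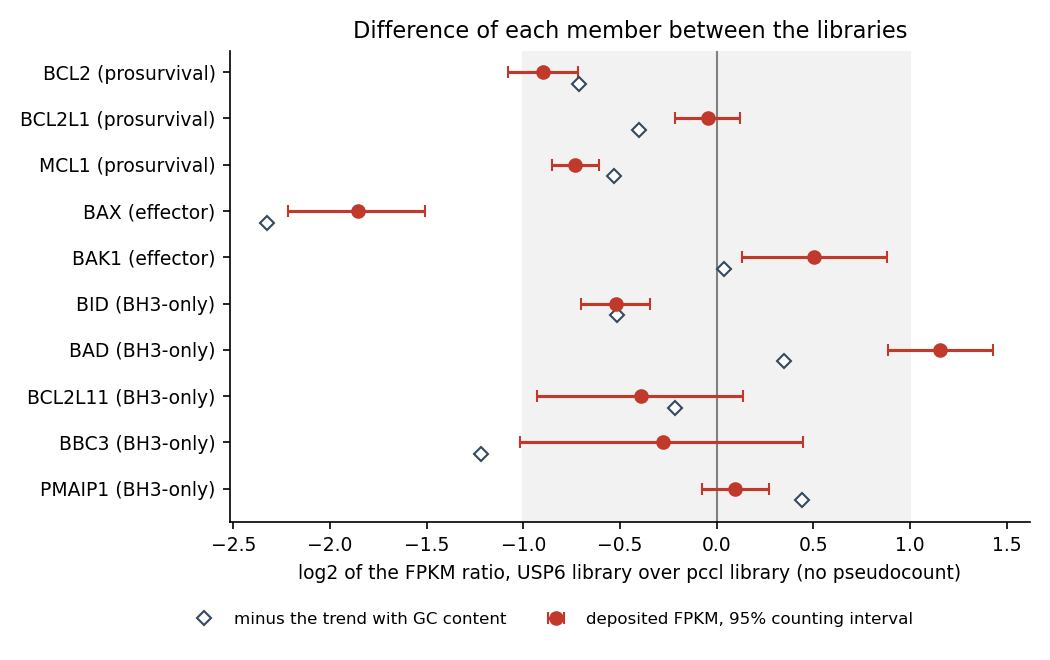
Log2 of the FPKM ratio, USP6 library over pccl library with no pseudocount, for each member (red, with the 95% counting interval), and the same value minus the trend of all expressed genes with GC content (open diamonds), over a grey band from -1 to 1. BAX lies lowest by either measure, while BAD lies at 1.16 as deposited and at 0.35 after the trend was removed.

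The GC content of transcripts went with the ratios across the whole table, and the members were read against it. Over 10 classes of GC content, the median log2 ratio was -0.37 in the class of least GC and 0.74 in that of most GC. BAD, BAK1 and BID lay within 0.5 of that trend, as did the remaining expressed members other than BAX. BAX, with 58.9% GC, lay in a range where most genes were higher in the USP6 library (0.47 on the trend), and its centred log2 ratio was -1.74, further from 0 than the -1.27 as deposited. BBC3, with 69.7% GC, had a centred log2 ratio of -1.03, although it was under 1 FPKM and rests on 31 counts in the USP6 library and 37 in the pccl library. Over the 8 expressed members the median was -0.40 after centring, against -0.02 over all expressed genes with a GC value. What gives rise to the trend was not tested.

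**Figure D3:**
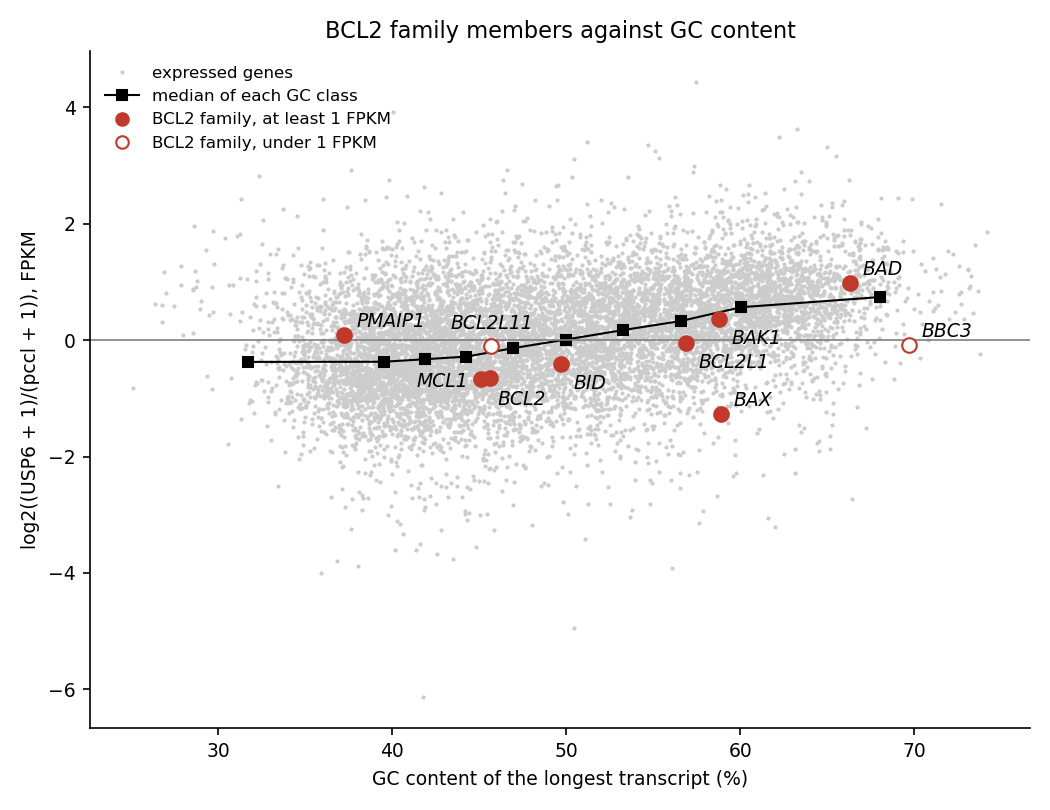
Log2((USP6 + 1)/(pccl + 1)) of FPKM against the GC content of the longest transcript for expressed genes (grey), with the median of 10 GC classes (black squares, placed at the middle of each class) and the 10 members (red, open if under 1 FPKM). BAX lies well under the line at 58.9% GC, and BAD lies near it at 66.3%.

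The order of the levels differed between the libraries. In the USP6 library, PMAIP1 was the highest member with 11.6 FPKM, followed by BAD, MCL1 and BCL2L1, among which BAD and MCL1, and MCL1 and BCL2L1, had overlapping intervals. BID and BAK1 came next and overlapped, and BCL2, BAX, BBC3 and BCL2L11 followed. In the pccl library, MCL1 was the highest with 12.4 FPKM, ahead of PMAIP1 and BCL2L1, and each neighbour in this group lay outside the interval of the next. BID, BAX, BAD and BCL2 then formed a run in which each overlapped the next, between 4.57 and 3.63 FPKM, before BAK1, BBC3 and BCL2L11. BAX was thus the eighth of the family in the USP6 library and the fifth in the pccl library, and BAD the second in the USP6 library and the sixth in the pccl library.

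These orders rest on the length by which the authors divided. For 9 of the 10 members the length behind the deposited FPKM equals the summed length of all distinct exons in GENCODE release 29 within 0.1%, in which overlapping exons of different transcripts are counted repeatedly, and so it did for 88.4% of the expressed genes compared. For the members this length was 1.38 times (BCL2) to 2.55 times (BID) the merged exon length, which counts each base once. Levels of genes with many annotated exons are thereby understated, while ratios between the libraries are not touched except through the pseudocount. Recomputed with merged exons, the order of the 10 members was the same as above in both libraries. BAX then had 2.66 FPKM in the USP6 library and 9.61 in the pccl library, and BAD 17.4 FPKM in the USP6 library and 7.80 in the pccl library. BCL2L11 and BBC3 stayed under 1 FPKM in both libraries.

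By role, the BH3-only genes held a larger and the prosurvival genes a smaller share of the family's messages in the USP6 library. The 10 members summed to 44.2 FPKM in the USP6 library and 49.3 in the pccl library. The prosurvival genes made up 36.1% of this sum in the USP6 library and 46.2% in the pccl library, the effectors 9.67% in the USP6 library and 13.0% in the pccl library, and the BH3-only genes 54.2% in the USP6 library and 40.8% in the pccl library. BAD alone held 19.1% of the sum in the USP6 library and 7.68% in the pccl library, and MCL1 17.0% in the USP6 library and 25.2% in the pccl library. Of the other BH3-only genes, PMAIP1 held a larger share in the USP6 library, and BID (7.20% against 9.27%), BBC3 and BCL2L11 a smaller one. The larger BH3-only share thus goes in part with the higher level of BAD, whose overlap with GPR137 and GC content are given above. It does not rest on BAD alone, since the lower levels of MCL1, BCL2 and BAX made the rest of the sum smaller. PMAIP1 held its larger share although a difference in its level was not detectable. Shares without BAD were not computed. With merged exon lengths the prosurvival share was 37.1% in the USP6 library and 46.2% in the pccl library. The shares depend on which genes are summed, and BIK, a BH3-only gene outside the 10, had 17.2 FPKM in the USP6 library and 12.9 in the pccl library, at or above the highest member in both on the deposited lengths. In the pccl library the level of BIK lay within the counting interval of MCL1 (11.8 to 13.1 FPKM).

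**Figure D4:**
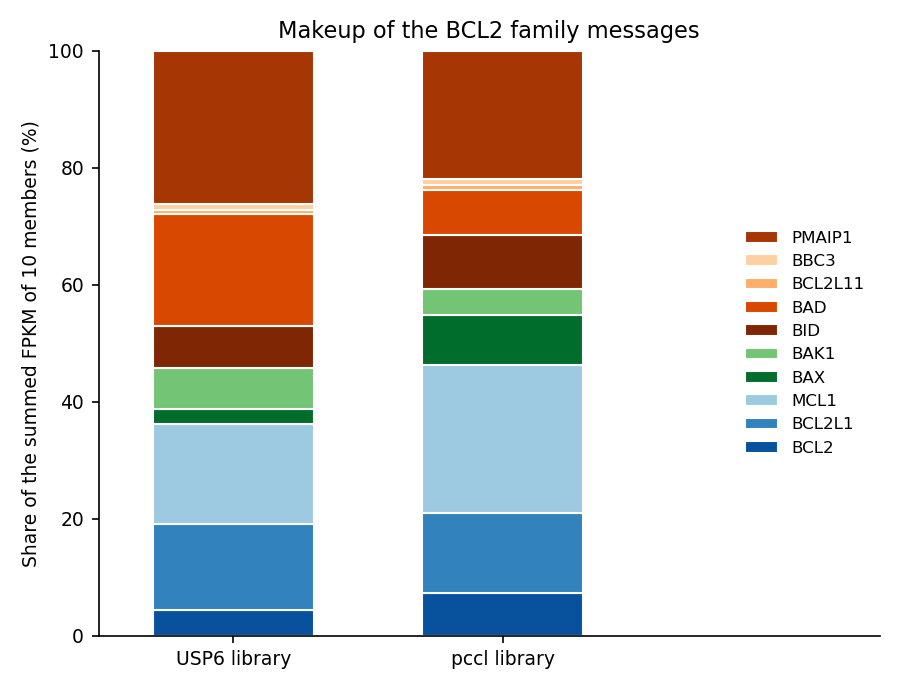
Share of the summed FPKM of the 10 members taken by each, in the USP6 library (left) and the pccl library (right), with prosurvival genes in blue, effectors in green and BH3-only genes in brown and orange. The blue part is 36.1% in the USP6 library and 46.2% in the pccl library, and the dark green part, BAX, 2.65% and 8.59%.

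Other genes of the family went both ways. Of 16 listed, 10 were expressed, 2 of them higher and 1 lower at the limit of 1, against 13.7% higher and 11.4% lower over all expressed genes, with a median of -0.17. BNIP3L, a receptor for the removal of mitochondria, had 8.59 FPKM in the USP6 library and 3.56 in the pccl library, 2.41-fold higher (2.11 to 2.76). BNIP2 was 3.07-fold lower (2.65 to 3.57). The readthrough gene BCL2L2-PABPN1 was 2.56-fold higher and the prosurvival gene BCL2L2 had 39 counts in the USP6 library and 75 in the pccl library, but these share sequence and their counts are uncertain, and their sum was 1.60-fold higher (1.30 to 1.96). The prosurvival gene BCL2A1 had 8 counts in the USP6 library and 26 in the pccl library. BMF, a BH3-only gene named here after its values had been seen, had 38 counts in the USP6 library and 3 in the pccl library, both under 1 FPKM, 12.5-fold higher (3.95 to 63.1). After GC centring, BNIP3L alone of this list was past the limit.

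Of 9 genes that act on the mitochondrial outer membrane or leave through it, all were expressed, 3 were past the limit and lower and 0 higher, against 11.4% lower and 13.7% higher over all expressed genes, and the median was -0.45. VDAC1, the main channel of the outer membrane, had 11.9 FPKM in the USP6 library and 44.0 in the pccl library, 3.70-fold lower (3.40 to 4.02). MTCH2, a receptor for truncated BID on mitochondria, was 4.13-fold lower (3.57 to 4.78), and VDAC3 2.20-fold lower (1.97 to 2.46). VDAC2, known to bring BAK1 to mitochondria, had 14.1 FPKM in the USP6 library and 15.4 in the pccl library. The cytochrome c gene CYCS had 39.7 FPKM in the USP6 library and 54.8 in the pccl library, 1.38-fold lower (1.31 to 1.45). AIFM1 was 2.39-fold lower, just short of the limit. HTRA2, a protease released from mitochondria, was 1.72-fold higher (1.55 to 1.90), the other way from the rest of the list. Between 2 and 4 of these genes were past the limit and lower and 0 higher under each setting of scale, pseudocount, GC trend and gene length, although not the same ones. After GC centring VDAC3 was at -0.78 and ENDOG, at -0.23 as deposited, was at -1.09.

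Further down the pathway, 9 genes of the apoptosome and caspases were listed and 5 were expressed, with 0 past the limit and a median of 0.43. Over all expressed genes, 11.4% were past the limit and lower and 13.7% higher. With 5 expressed genes or fewer per list, 0 past the limit does not set this list or those that follow here apart. The initiator caspase gene CASP10 had 1.28 FPKM in the USP6 library and 0.408 in the pccl library, 3.15-fold higher (2.47 to 4.05), and CASP8, whose protein cleaves BID, was 1.56-fold higher (1.33 to 1.84). The initiator CASP2 was 1.90-fold lower (1.69 to 2.13) and CASP6, an executioner, 1.85-fold higher (1.36 to 2.53), both short of the limit. APAF1, the scaffold of the apoptosome, had 0.858 FPKM in the USP6 library and 0.415 in the pccl library. Of 7 inhibitor of apoptosis genes, 3 were expressed and 0 were past the limit, with a median of -0.36. BIRC5, known also for its part in cell division, was 1.61-fold higher (1.40 to 1.87) and BIRC6, a large ubiquitin ligase, was 2.67-fold lower (2.27 to 3.14). BIRC2, a ligase of the TNF receptor branch, was 1.79-fold lower (1.36 to 2.36). Of 8 genes of death receptors and their adaptors, 5 were expressed and 0 past the limit, with a median of -0.01 that became 0.14 when both libraries were scaled to the same FPKM sum. FADD, which recruits caspase-8, was 2.16-fold lower (1.41 to 3.37) on 33 counts in the USP6 library and 70 in the pccl library, and past the limit at -1.20 after GC centring. The TRAIL receptor genes TNFRSF10A and TNFRSF10B and the kinase gene RIPK1 had folds of 1.41 (0.881 to 2.29), 1.17 (0.993 to 1.37) and 0.855 (0.673 to 1.09), and each interval included 1.

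Of 12 transcription factors known to act on BCL2 family genes, 10 were expressed. ATF4, DDIT3 and MYC were past the limit and higher and STAT5A was past it and lower, 4 of 10 against 25.1% of all expressed genes. After GC centring MYC was short of it at 0.82. The median was 0.42, or -0.05 after GC centring. ATF4, the main factor of the integrated stress response, had 797 FPKM in the USP6 library and 298 in the pccl library, 2.68-fold higher (2.63 to 2.73). DDIT3, which acts with it and is known to activate BCL2L11, had 7.67 FPKM in the USP6 library and 3.03 in the pccl library, 2.53-fold higher (2.17 to 2.97). STAT5A, which can activate BCL2L1 and MCL1, was 6.37-fold lower (4.65 to 8.89), STAT3 2.61-fold lower (2.26 to 3.03), while STAT5B had 5.23 FPKM in the USP6 library and 6.52 in the pccl library.

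Of 24 genes listed for the stability or phosphorylation of family proteins, 19 were expressed, with a median of -0.59. At the limit of 1, 3 of them were lower and 0 higher, against 11.4% lower and 13.7% higher over all expressed genes. At 1.5-fold, 10 of the 19 were lower and 1 higher, against 24.5% and 27.9% of all expressed genes. Whether the list differs from the table was not tested. The 14-3-3 genes, whose proteins hold phosphorylated BAD in the cytosol, differed among themselves. YWHAB had 1.21 FPKM in the USP6 library and 13.2 in the pccl library, with a counting interval of the fold from 9.38 to 12.9, and YWHAQ was 3.07-fold lower (2.84 to 3.31). YWHAZ was 1.73-fold higher (1.64 to 1.83) and YWHAE 1.35-fold higher (1.27 to 1.44), both short of the limit, although YWHAZ reached 1.04 after GC centring. CUL5, the scaffold of a ubiquitin ligase that acts on NOXA, was 3.93-fold lower (3.28 to 4.74). Of the ligases and deubiquitinases of MCL1, FBXW7 was 3.57-fold lower (2.75 to 4.67) on 75 counts in the USP6 library and 263 in the pccl library. USP13 was 2.13-fold lower (1.81 to 2.52), and both were short of the limit. HUWE1 was 1.79-fold lower (1.63 to 1.96) and MARCHF5 1.66-fold lower (1.43 to 1.94). USP9X had 3.45 FPKM in the USP6 library and 4.13 in the pccl library. The kinase gene PIM1, whose protein phosphorylates BAD, had 39.6 FPKM in the USP6 library and 64.6 in the pccl library, 1.63-fold lower (1.54 to 1.73), and past the limit after GC centring. The list's median stayed below 0 under all settings run, although a pseudocount cannot change the sign of any gene.

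**Figure D5:**
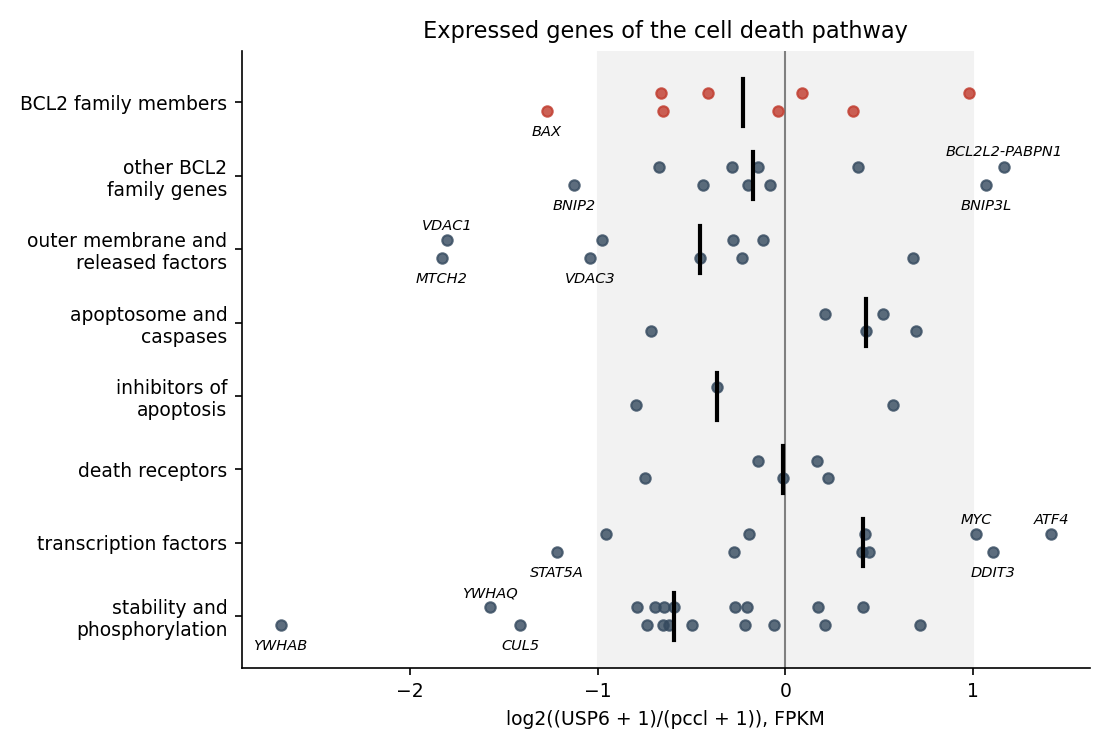
Log2((USP6 + 1)/(pccl + 1)) of FPKM for expressed genes of the family (red) and of 7 related lists (dark), with the median of each list as a black bar and a grey band from -1 to 1. BAX is the member outside the band, the mitochondrial list has 3 genes on its lower side and the list of stability and phosphorylation genes also has 3, and neither list has a gene above the band.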

How the data were processed

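The deposited table holds, per gene, a read count and an FPKM value in each library. Per the submitters' processing notes, the tools included HISAT2 2.0.4, StringTie 1.3.3b and edgeR. Not given in the sources used here are annotation, strandedness, genome build and the role of each tool. The counts deposited by the authors sum to 12518795 (USP6) and 12306442 (pccl). Each FPKM deposited by the authors follows from its count, the column total and a length per gene, which agreed between the libraries within 0.1% for all 16030 genes compared. Loci of 94.9% of the 50111 identifiers found in GENCODE release 29 (GRCh38), all 10 members included, were identical there.

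Genes of 1 symbol were summed. Genes that reached 1 FPKM in either library were taken as expressed, and differences are log2((USP6 + 1)/(pccl + 1)). With 0 residual degrees of freedom no test was made. Folds are ratios of count shares with exact 95% binomial intervals, ratios between genes have exact conditional intervals of the odds ratio, and levels exact Poisson intervals. GC content is that of the longest GENCODE transcript, centred by lowess (span 0.3). BH3 codons were found by translating coding sequences and searching for a pattern that begins with leucine and ends with aspartate. Promoters came from RefSeq (GRCh38.p14), which matched 9 members and not MCL1. All members are named, with USP6, overlapping genes, and from each list the expressed genes past the limit and up to 4 of largest ratio, with no search for genes of like pattern, some other genes being named for their role. A few genes of the related and marker lists are not reported here and were left out of the lists' counts and medians. Members and lists were chosen with earlier results of these data known. The code for folds and intervals was tried on simulated counts, which says nothing of differences between cultures. Python 3.11.15, SciPy 1.17.1, statsmodels 0.14.6, R 4.3.3 and edgeR 4.0.16 (scaling factors) were used.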

Additional observations from a re-analysis of the deposited data

How the results depend on the processing

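BAX stayed below 0 under all 11 settings run for single members, between -1.77 and -0.58, and was past the limit in all but the pseudocount of 5. Only the settings of scale and GC trend could have changed its sign. As counted, at a log2 ratio of 1 with the pseudocount of 1 FPKM, 1 member was lower and 0 were higher. The number lower was 0 with a pseudocount of 5 and when genes had to reach 5 FPKM, which keeps 4 members and drops BAX, and 3 at a 1.5-fold limit. The number higher was 1, BAD, with a pseudocount of 0.1 or 0.5, the upper quartile, the same FPKM sum, a 1.5-fold limit or merged exon lengths, the last chosen after the data were seen. The members' median of -0.23 was -0.13 with a pseudocount of 5, 0.024 with a filter of 5 FPKM, -0.094 with no filter, -0.10 with the same FPKM sum and -0.40 after GC centring. Of all expressed genes, 1396 were higher and 1156 lower. These numbers were 2295 and 1993 with a pseudocount of 0.1, 364 and 301 with 5, 808 and 682 with a filter of 5 FPKM, 2831 and 2489 at 1.5-fold, 1820 and 2005 with depth from nuclear genes, and 2199 and 1172 with the same FPKM sum. The lower genes were the more numerous with the trimmed mean of M values (1348 against 1194). The prosurvival share of 36.1% in the USP6 library and 46.2% in the pccl library was 51.9% and 59.9% from counts not divided by length, 27.0% and 38.8% with the other family genes, and 49.0% and 59.2% without PMAIP1. It was lower in the USP6 library in each. BAK1 was below 0 after GC centring alone. BCL2L1, BCL2L11 and PMAIP1 took either sign. No paired analysis was possible because each group is 1 library. The depth of 31 to 71 counts limits BBC3 and BCL2L11. The cause of these shifts was not tested.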
